A study of Bos taurus with 53 samples.

Results

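The extraembryonic tissue and the embryonic disc of the same bovine conceptus were compared in the embryos of the CONTROL arm, which came from oocytes matured without added fatty acids and without solvent. The libraries were those of the CONTROL embryos of which both the disc and the extraembryonic tissue had been sequenced, paired by the embryo number in the labels. This gave 6 of the 53 libraries, from 3 of the 30 embryos of the series, numbered 1, 2 and 4. All 3 were male and tubular, and were flushed from the same recipient cow, cow 813. Each group therefore held 3 libraries, from 3 conceptuses of 1 flush, and the p-values do not measure the spread between cows. With so few pairs, the spread used for each gene was drawn mostly from that of all genes (prior degrees of freedom 39.6). A small p thus does not mean that the 3 embryos were alike for that gene.

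In the series, oocytes were matured in vitro for 24 h, fertilised in vitro and cultured to the blastocyst stage. On day 7.7, 8 blastocysts were transferred to each cow, and on day 14 the conceptuses were flushed through the cervix and cut into a disc part and an extraembryonic part. Besides CONTROL there were a BASAL medium, with stearic acid at 28 µM, palmitic acid at 23 µM and oleic acid at 21 µM in 0.45% ethanol, and a HIGH PA medium, with palmitic acid at 150 µM and the same stearic acid, oleic acid and ethanol. CONTROL embryos came from cow 813 only, which also carried BASAL and HIGH PA embryos, so the CONTROL medium and the flush of its embryos cannot be told apart. A further extraembryonic CONTROL library of that cow, from embryo 5, which was female and ovoid and had no disc library, was left out of the paired test and is given beside it.

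At this stage a ruminant conceptus has lost the polar trophoblast over the inner cell mass, and the disc lies exposed at the surface as an epithelial epiblast underlain by hypoblast. Around it the trophoblast, lined on the inside by extraembryonic hypoblast, elongates from a sphere through ovoid and tubular shapes to a filament. Nodal, FGF and Wnt signals pattern the disc and start the primitive streak, from which mesoderm arises. The trophoblast secretes interferon tau, the signal by which a ruminant pregnancy is recognised by the mother, and takes up and metabolises lipid during elongation. In bulk tissue of this kind, fewer cells of a type and less RNA per cell cannot be told apart.

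The disc libraries of embryos 1, 2 and 4 held 3259392, 2573384 and 284848 exon reads, and the extraembryonic libraries 5990719, 7291066 and 8711638. The disc of embryo 4 was thus by far the shallowest of the 6. Libraries were correlated across genes in log2 CPM (exon read counts scaled to a common library total). The extraembryonic libraries correlated with each other at 0.984 to 0.987, and the discs of embryos 1 and 2 at 0.954. The disc of embryo 4 correlated with the other discs at 0.822 to 0.828. With the extraembryonic libraries the discs correlated at 0.893 to 0.900 (embryo 1), 0.845 to 0.855 (embryo 2) and 0.760 to 0.766 (embryo 4). The discs of embryos 1 and 2 thus correlated better with the extraembryonic libraries than with the disc of embryo 4. The share of intron reads was 8.48% to 9.98% in the discs and 6.66% to 7.49% in the extraembryonic libraries, and the mitochondrial share was 3.00% to 4.74% and 3.41% to 4.01%. Tissue went together with the RNA kit named in the labels, and the lane numbers in the deposited column names put the 3 discs in lanes 3, 2 and 1 and all extraembryonic CONTROL libraries in lane 4. Kit, lane and tissue cannot be told apart in these libraries.

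Most of the genes that differed between the tissues did so by less than 8-fold, and nearly all of the larger differences were genes lower in the extraembryonic tissue than in the disc. Of 11012 genes tested, 1610 rose in the extraembryonic tissue (14.6%) and 1865 fell (16.9%), at a Benjamini-Hochberg adjusted p under 0.05 by edgeR (quasi-likelihood F test, blocked by embryo). The genes that fell included the epiblast and streak regulators NODAL, SOX2 and EOMES, the serum proteins of the visceral endoderm TF and APOB, and growth factor receptors such as FGFR1. The genes that rose included the lipid enzymes and carriers SLC27A6, MOGAT1 and ACSL3, the endocytic receptor LRP2, interferon tau and chaperones of the endoplasmic reticulum.

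Falls were larger than rises. The median size of a rise was 0.77 on the log2 scale (quartiles 0.60 and 0.98), and that of a fall was 2.06 (1.08 and 3.88). A fitted difference of more than 8-fold was found for 5 of the genes that rose and for 634 of those that fell. Among the latter were 143 genes with no extraembryonic read. With a floor of 3 reads set against the mean disc level, each was at least 12.4-fold lower. Such bounds take the mean disc level as given and leave out the spread and counting error of the discs. A total of 85 genes, 71 of them with a symbol, had at least 5 CPM in every disc and under 0.5 CPM in every extraembryonic library, and 0 genes showed the converse. The genes that rose were the more abundant ones, with a median of 73.8 CPM over the 6 libraries, and those that fell had a median of 12.0 CPM. The median of all tested genes was 0.01 on the log2 scale.

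**Figure D1:**
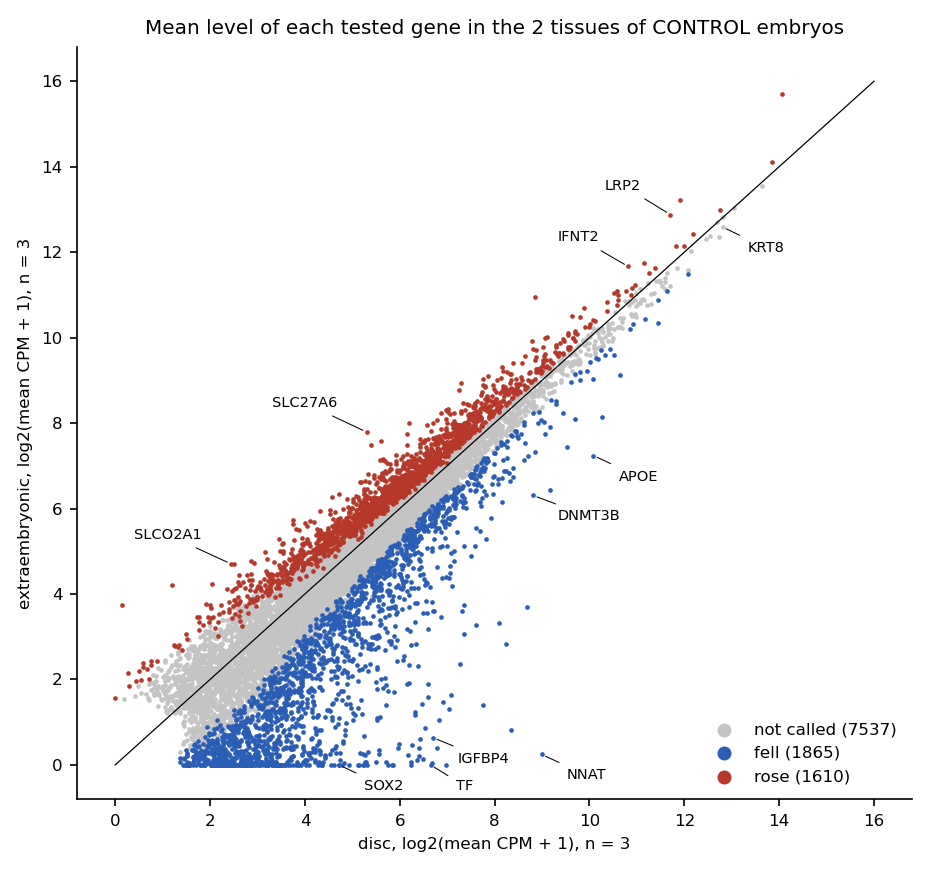
Mean level of each tested gene in the disc (horizontal axis) and in the extraembryonic tissue (vertical axis) of the 3 CONTROL embryos, both as log2(mean CPM + 1), with genes that rose in red, genes that fell in blue and the rest in grey. The 1610 genes that rose lie in a narrow band above the diagonal, and many of the 1865 that fell reach down to an extraembryonic level of 0.

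Within the embryos, 1482 of the genes that rose and 1535 of those that fell moved in that direction in all 3 pairs. Of all 11012 tested genes, 6014 moved the same way in all 3 pairs. The groups did not overlap for 4660 of the tested genes (42.3%), with the extraembryonic libraries higher for 1698 (15.4%) and lower for 2962 (26.9%). The direction of the rises held in 1586, 1581 and 1535 of 1610 genes in embryos 1, 2 and 4. The median rise within an embryo, on the log2(CPM + 1) scale, was 0.52 and 0.53 in embryos 1 and 2 and 0.85 in embryo 4, whose disc was the shallow one. The falls held in 1864, 1864 and 1537 of 1865 genes, with medians of -1.54, -1.97 and -1.52. Genes with 0 reads in both libraries of an embryo, such as CER1 in embryo 4, counted as not held, so not all of the others were reversals.

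The number of calls depended on how the spread was estimated and on which embryos were used, and the calls themselves did not turn. It was 1509 without embryo 1, 1377 without embryo 2 and 3862 without embryo 4. With the spread estimated over all paired libraries of the 3 media, 474 genes rose and 1382 fell, which kept 28.3% of the rises and 61.6% of the falls. With DESeq2 833 rose and 1309 fell, and with all libraries thinned to the depth of the shallowest disc 347 rose and 446 fell. In the 11 alternatives run, 0 genes called here were called in the opposite direction.

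Of 12 epiblast markers tested, 11 fell and 0 rose, and the median was -5.15 on the log2 scale, or -4.03 with genes that had no extraembryonic read set at their bound. The count and the median shifted in settings where fewer of these genes passed the filter on low counts. Without embryo 1, 5 of 9 tested fell (median -2.39), and without embryo 2, 5 of 9 (-2.33). With embryo 4 left out 10 of 11 fell and 1 rose (-4.79). Without the block, and with no library left out, 8 of 9 fell (-2.41). These medians are over fewer genes than the 12 of the main test, so they do not compare the same genes. NNAT (ENSBTAG00000003212, chromosome 13, 67118489 to 67120879, UMD3.1), an imprinted gene for a small membrane protein of the endoplasmic reticulum, had the lowest p of all genes. Its level was 402, 699 and 425 CPM in the discs of embryos 1, 2 and 4, and 0.167, 0.274 and 0.115 CPM in their extraembryonic tissue. The groups lay far apart in each embryo. The log2 difference was -11.06 (SE 0.292, adjusted p 8.13e-30), and since the extraembryonic libraries held only 4 reads, the ratio of disc to extraembryonic level over the pooled reads was 2903 (exact 95% counting interval 1133 to 10661).

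SOX2 (ENSBTAG00000011598, chromosome 1, 85933322 to 85934782), a core transcription factor of the pluripotent epiblast, was read at 6.14, 31.1 and 38.6 CPM in the discs and had no read in any of the 3 extraembryonic libraries. NODAL (ENSBTAG00000013090, chromosome 28, 26794898 to 26801991), the signal that maintains the epiblast and induces the streak, was at 35.6, 59.5 and 7.02 CPM in the discs and also at 0 in the extraembryonic tissue. Set against that floor of 3 reads over the 3 libraries, SOX2 was at least 185-fold lower and NODAL at least 249-fold lower in the extraembryonic tissue (adjusted p 7.32e-11 and 2.94e-14). Both genes were seen in every disc, with embryo 1 lowest for SOX2 and embryo 4, with 2 reads, lowest for NODAL.

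DNMT3B, the de novo DNA methyltransferase typical of epiblast, was at 404, 610.1 and 330 CPM in the discs and 83, 77.2 and 73.9 CPM in the extraembryonic tissue. It fell by 2.31 on the log2 scale (SE 0.166, adjusted p 6.88e-15), a difference with a clear level on both sides. OTX2, a transcription factor of the anterior epiblast and anterior hypoblast, was at 29.1, 39.2 and 0 CPM in the discs and 1.84, 0.411 and 0.918 CPM in the extraembryonic tissue, and fell by 4.30. The disc of embryo 4 had no OTX2 read, so the groups overlapped. KLF4, a Krüppel-like factor, was the 1 tested epiblast marker without a call, at 43.3, 32.6 and 59.7 CPM in the discs and 55.8, 54 and 43.3 CPM in the extraembryonic tissue (log2 difference 0.53, adjusted p 0.0682), and is named for that reason. POU5F1 and NANOG are not analysed here.

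Of 12 streak and mesoderm markers tested, 10 fell and 0 rose, with a median of -5.79 (-5.33 with bounds). With embryo 1 left out 6 of 9 fell (-3.25), and with embryo 2 left out 6 of 7 (-6.65). Leaving out embryo 4 gave 9 falls among 11 (-6.23). EOMES (ENSBTAG00000016920, chromosome 22, 2112409 to 2117440), a T-box factor of the streak, was at 19.6, 54.8 and 14 CPM in the discs and at 0 in the extraembryonic tissue, at least 216-fold lower (adjusted p 4.33e-13). T, the T-box factor brachyury of the nascent mesoderm, was at 10.1, 34.2 and 31.6 CPM in the discs and at 0 in the extraembryonic tissue, at least 186-fold lower. Each disc had reads of both, though the shallow disc of embryo 4 had only 4 reads of EOMES and 9 of T.

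HAND1, a basic helix-loop-helix factor of extraembryonic mesoderm and, in rodents, of trophoblast giant cells, was at 74.6, 67.6 and 197 CPM in the discs and 2, 0.823 and 0.344 CPM in the extraembryonic tissue. It fell by 6.47 on the log2 scale (SE 0.388, adjusted p 1.65e-17), and its highest level was in the disc of embryo 4. BMP4 was at 22.7, 57.5 and 28.1 CPM in the discs and 6.34, 6.58 and 4.36 CPM in the extraembryonic tissue, a fall of 2.36 with no overlap. CER1, a secreted inhibitor of Nodal from the anterior hypoblast, was at 10.7, 14.4 and 0 CPM in the discs and at 0 in the extraembryonic tissue, at least 61.4-fold lower. CER1 had no read in the disc of embryo 4. The 2 members without a call, named for that, were KDR (mean 5.95 CPM in the disc and 2.02 CPM in the extraembryonic tissue) and SNAI1 (82.6 and 67 CPM).

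**Figure D2:**
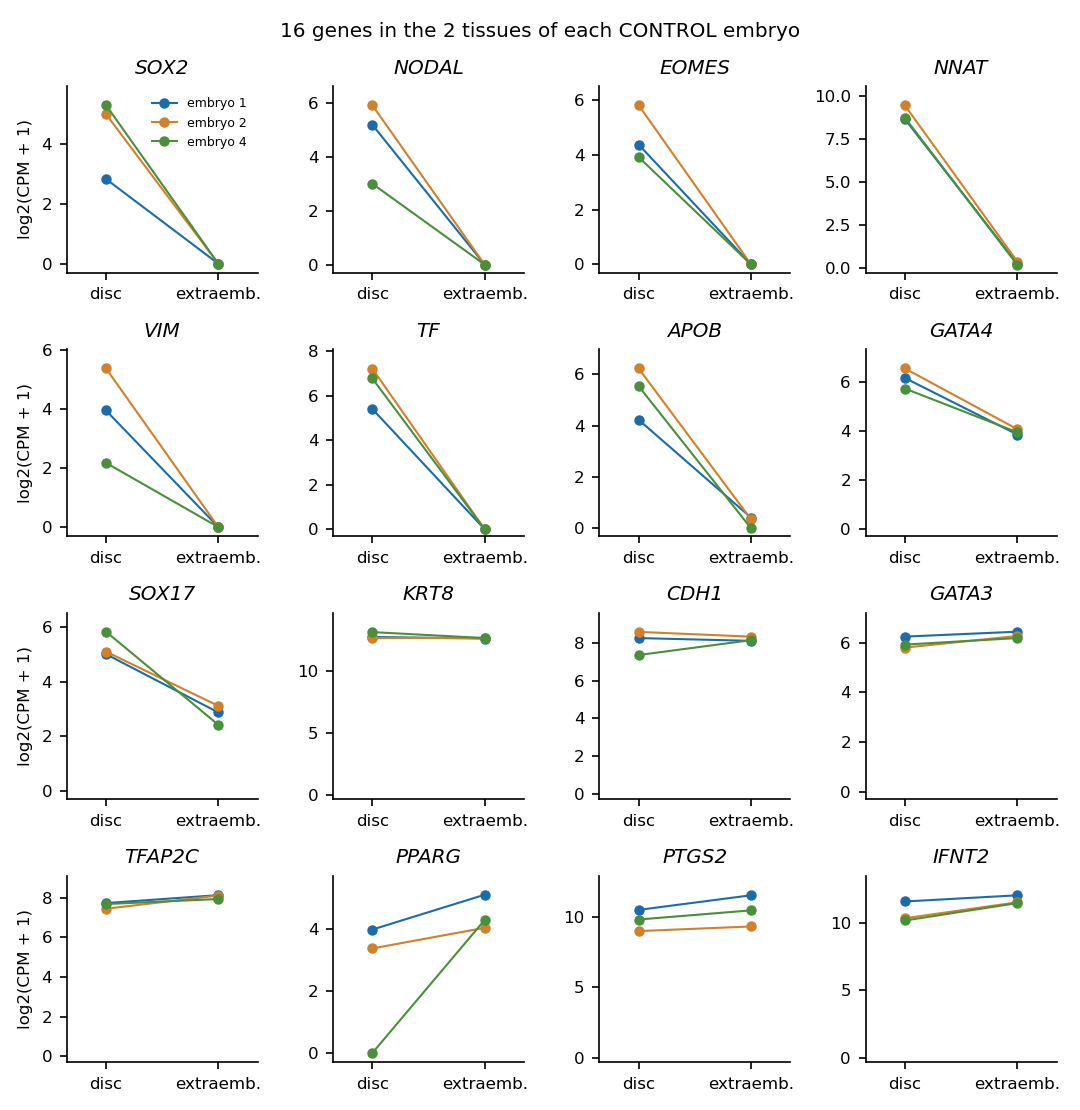
Level of 16 genes in the disc and in the extraembryonic tissue of each CONTROL embryo, as log2(CPM + 1), with 1 line for each of embryos 1, 2 and 4. SOX2, NODAL, EOMES, NNAT, VIM, TF and APOB run down to or near 0 in all 3 embryos, GATA4 and SOX17 fall to a lower level, and KRT8, CDH1 and GATA3 run almost flat.

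Among the signals that pattern the disc, the genes that fell were ligands, receptors, inhibitors and targets. In the BMP and Nodal list, 14 of 20 tested genes fell and 0 rose (median -1.90), and 9 of 18 fell without embryo 2. Without embryo 4, 15 of 20 fell and 2 rose. Beside the ligands NODAL and BMP4, BMP2 was at 59.8, 132 and 24.6 CPM in the discs and 3.34, 2.74 and 2.18 CPM in the extraembryonic tissue, a fall of 4.44 (adjusted p 3.58e-14). The binding protein FSTL1 fell by 2.94, from a mean of 93.7 ± 38.7 CPM to 10.7 ± 3.23 CPM (SD, n = 3). The targets ID1 and ID3, inhibitors of helix-loop-helix factors that BMP signals induce, fell by 5.77 and 1.99. ID1 stood at 50.3, 141 and 169 CPM in the discs and 2.34, 2.19 and 0.804 CPM in the extraembryonic tissue, with no overlap.

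In the FGF list 12 of 16 tested genes fell and 0 rose (median -2.35). FGFR1 (ENSBTAG00000015457, chromosome 27, 33250533 to 33291989), the receptor of the epiblast, was at 162, 208 and 116 CPM in the discs and 6.84, 11.2 and 4.02 CPM in the extraembryonic tissue, and fell by 4.28 (SE 0.218, adjusted p 1.02e-19). FGFR3 fell by 2.17, from a mean of 93.7 ± 20.9 CPM to 18.2 ± 3.31 CPM (SD, n = 3). ETV5, a transcription factor induced by FGF signals, and the pathway inhibitors SPRY2 and SPRED1 fell by 3.63, 2.88 and 1.53. FGFR1, FGFR3 and these 3 genes were lower in the extraembryonic tissue than in every disc.

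In the Wnt list 15 of 26 tested genes fell and 2 rose (median -1.75). The falls were 8 of 22 without embryo 1 and 7 of 23 (median -0.89) without embryo 2, and 10 of 26 with DESeq2. Leaving out embryo 4 gave 15 falls and 2 rises among 25. The secreted antagonist SFRP1 was at 51.5, 115 and 21.1 CPM in the discs and 0.835, 0.137 and 0.23 CPM in the extraembryonic tissue, a fall of 7.00. The ligand WNT11 fell by 2.26, the co-receptor LRP5 by 2.45, the receptor FZD2 by 3.70 and the transcription factor TCF7 by 6.06. The 2 that rose, named for being the exceptions, were the antagonist DKK1, at 3.99, 5.05 and 0 CPM in the discs and 6.18, 19.6 and 11.2 CPM in the extraembryonic tissue, and the ligand WNT7B, at 0.92, 1.17 and 0 and 6.01, 2.33 and 3.79 CPM. DKK1 and WNT7B lost these calls with DESeq2, with the spread shared over the media and without embryo 2.

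Genes of the hypoblast and yolk sac fell too, although extraembryonic hypoblast lines the trophoblast. Of 25 tested, 17 fell and 3 rose, with a median of -1.56. TF (ENSBTAG00000007273, chromosome 1, 136683310 to 136722309), the iron carrier transferrin, was at 41.4, 148 and 109 CPM in the discs and at 0 in all 3 extraembryonic libraries, at least 729-fold lower (adjusted p 4.21e-20). APOB, the structural apolipoprotein of lipid particles, was at 17.8, 74.2 and 45.6 CPM in the discs and 0.334, 0.274 and 0 CPM in the extraembryonic tissue. The extraembryonic libraries held 4 APOB reads, and the ratio of disc to extraembryonic level was 235 (exact 95% counting interval 90.9 to 871). For TF and APOB alike the extraembryonic level was at or near 0 in each embryo.

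The other apolipoproteins were present on both sides. APOE was at 843, 1596 and 811 CPM in the discs and 137, 178 and 135 CPM in the extraembryonic tissue, and APOA1 at 1314, 2207 and 1249.8 CPM and 492, 679.6 and 511 CPM. APOE fell by 2.61, APOA2 by 5.50 and APOA1 by 1.28 on the log2 scale, with no overlap for any of the 3. GATA4 (ENSBTAG00000005425, chromosome 8, 7478855 to 7527262), a transcription factor of the hypoblast, was at 71.5, 94 and 52.7 CPM in the discs and 13.5, 15.9 and 14.5 CPM in the extraembryonic tissue, and fell by 2.16 (SE 0.246, adjusted p 2.72e-09). SOX17, another hypoblast factor, fell by 2.36, from 31.3, 33.4 and 56.2 CPM to 6.34, 7.68 and 4.36 CPM. Both factors thus had reads in every extraembryonic library.

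The 3 hypoblast markers that rose were the endocytic receptor LRP2 and 2 basement membrane genes. LRP2 (ENSBTAG00000004555, chromosome 2, 26936762 to 27078521), known as megalin, was at 5229.8, 3153 and 1615 CPM in the discs and 8571, 6919.6 and 7112 CPM in the extraembryonic tissue, and rose by 1.5 on the log2 scale (SE 0.161, adjusted p 5.67e-10). Every extraembryonic library of the 3 pairs was above every disc, and embryo 5 stood at 4702 CPM, inside the range of the discs. NID2 and LAMA1, named as the remaining exceptions, had means of 287 and 212 CPM in the disc and 444 and 329.6 CPM in the extraembryonic tissue, with overlap. None of the 3 kept its call with the spread shared over the media, where 13 of 26 tested hypoblast genes fell and 0 rose.

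All 24 trophectoderm markers of the list had reads. Of 23 tested, 7 rose, 3 fell and 13 were not called, with a median of 0.32, where 14.6% of all tested genes rose and 16.9% fell. The balance turned without embryo 2, when 1 rose and 5 fell, and with embryo 1 left out 3 rose and 2 fell. Without embryo 4, which had the shallow disc, 10 of 22 rose and 2 fell. KRT8 (ENSBTAG00000000836, chromosome 5, 27213749 to 27221177), the keratin of simple epithelia, was at 6591, 6237 and 8629 CPM in the discs and 6023, 6235 and 6199 CPM in the extraembryonic tissue (log2 difference -0.01, SE 0.126, adjusted p 0.962). GATA3, a trophoblast transcription factor, was at 74.9, 54.8 and 59.7 CPM in the discs and 86, 76.3 and 71.9 CPM in the extraembryonic tissue, and TFAP2C at 211, 173 and 204 CPM and 279, 275 and 243 CPM. GATA3 rose by 0.51 (adjusted p 0.0354) and TFAP2C by 0.65 (adjusted p 0.00114). GATA3 lost its call in 8 of the 11 alternatives, over which its adjusted p ran from 0.0225 to 0.490.

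PPARG, the nuclear receptor linked to lipid handling in the elongating trophoblast, was at 14.7, 9.33 and 0 CPM in the discs and 33.2, 15.4 and 18.5 CPM in the extraembryonic tissue. It rose by 1.31 (SE 0.347, adjusted p 0.00314), and lost the call in 5 of its 10 alternatives. GRHL1, an epithelial transcription factor, rose by 0.71 and TFEB, a regulator of lysosomal genes, by 1.20, both without overlap. The 3 trophectoderm markers that fell, given as the exceptions, were HAND1 (above), MSX2 (-0.90) and KRT19 (-0.36). With the spread shared over the media, 1 of 23 rose and 1 fell, and after thinning 1 of 18 rose and 3 fell. CDX2 is not analysed here.

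The 13 epiblast markers with reads summed to 1045, 1670 (embryo 2) and 986 CPM in the discs and to 188, 197 and 170.0 CPM in the extraembryonic tissue. NNAT and DNMT3B (above) made up most of the epiblast sum in each disc. The 17 streak and mesoderm markers summed to 322 to 417 CPM and 63.6 to 103 CPM. The 24 trophectoderm markers, all with reads, summed to 15862 to 22117 CPM in the discs and 16276 to 16841 CPM in the extraembryonic tissue. Most of each sum was KRT8 (above) and KRT18, a keratin of simple epithelia like KRT8, at 6023, 5777 and 7976 CPM in the discs and 6659, 6634 and 6689 CPM in the extraembryonic tissue. The trophoblast factors GATA3, TFAP2C and PPARG were higher in the extraembryonic tissue of each embryo (above), so the sum does not stand for each marker. The part of trophectoderm cells within the disc libraries in these calls was not tested.

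The hypoblast sum was 10911 to 19742 CPM in the discs and 15350 to 16385 CPM in the extraembryonic tissue. Most of each sum was LRP2, which rose, and the fibronectin gene FN1, which was not called. The sum therefore does not show the 17 of 25 tested hypoblast markers that fell. Markers of maternal endometrium and blood were close to absent: 8 of 15 had reads, and they summed to 15.3, 26.0 and 56.2 CPM in the discs and 8.26 to 12.5 CPM in the extraembryonic tissue. Of 4 tested, 1 fell, CD74, the invariant chain of MHC class II, at 2.45, 8.55 and 17.6 CPM in the discs and 0.167, 0 and 0 CPM in the extraembryonic tissue, with a pooled ratio of 126 (exact 95% counting interval 21.1 to 5110.2) from 1 extraembryonic read. The defining markers PTPRC of leukocytes, HBB of red cells and PAEP of endometrial glands had no read in any of the 6 libraries.

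**Figure D3:**
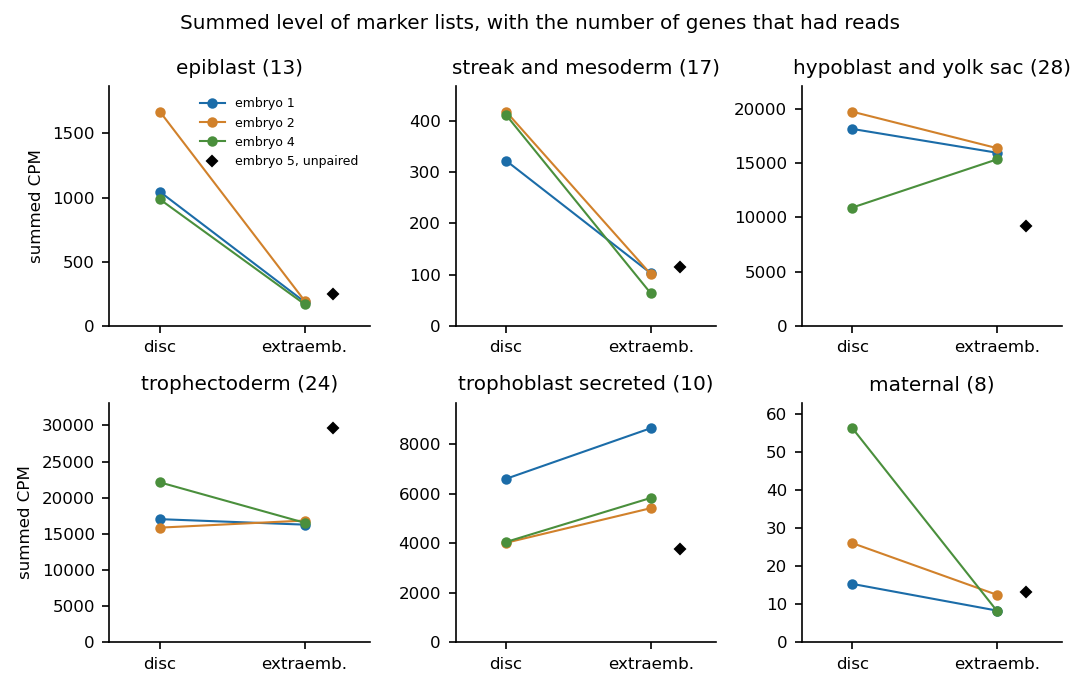
Summed CPM of 6 marker lists in the disc and the extraembryonic tissue of CONTROL embryos 1, 2 and 4 (lines) and in the unpaired extraembryonic library of embryo 5 (diamond), with the number of genes that had reads in brackets. Epiblast and streak sums fall in all 3 embryos, and the trophectoderm sum of the discs is at or above that of the extraembryonic tissue in embryos 1 and 4.

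Products that the trophoblast secretes into the uterus were found in both parts. IFNT2 (ENSBTAG00000047551, chromosome 8, 22607642 to 22634001), the interferon tau gene in the table, was at 2994, 1271 and 1134 CPM in the discs and 4101, 2875 and 2760.1 CPM in the extraembryonic tissue, and rose by 1.15 (SE 0.143, adjusted p 2.09e-08). It was higher within each of the 3 embryos, with overlap between groups because the disc of embryo 1 exceeded the extraembryonic tissue of embryos 2 and 4. The interferon tau genes are near-identical copies, so the value of 1 copy is uncertain. The call was lost in 3 of 11 alternatives, those without the block and with the shared spread.

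PTGS2, the cyclooxygenase that commits arachidonic acid to prostaglandins, was at 1435, 507 and 895 CPM in the discs and 2938, 637 and 1402 CPM in the extraembryonic tissue. It rose by 0.86 (adjusted p 3.23e-06) and was higher in the extraembryonic tissue of each embryo, with embryo 1 highest and embryo 2 lowest in both tissues. The prostaglandin transporter SLCO2A1 rose by 2.18, from 9.82, 3.5 and 0 CPM to 29.7, 16.7 and 28.7 CPM, without overlap. In the prostaglandin list 4 of 6 tested genes rose and 1, the prostacyclin synthase PTGIS, fell by 1.27. The rises were 2 without embryo 1, without embryo 2, without the block and with DESeq2, and 1 with the shared spread. They were 4 without embryo 4. PTGS2 lost its call in 3 of 11 alternatives, PTGES in 4 of 10 and PTGES3, a prostaglandin E synthase, in 7 of 11. PTGES was called as a rise although it was higher in 2 of 3 embryos, at 8.59, 4.66 and 28.1 CPM in the discs and 15.2, 19.2 and 23.4 CPM in the extraembryonic tissue. Of the 9 tested secreted genes 4 rose (2 without embryo 2), and 3 fell, among them the collagen chaperone SERPINH1 (-1.12) and the milk fat globule protein MFGE8 (-1.14).

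Epithelial genes moved both ways. Of 28 tested, 6 rose, 7 fell and 15 were not called (median 0.13), where 31.6% of all tested genes were called in either direction. Without embryo 2, 4 of 27 rose and 4 fell, and without embryo 4, 7 of 27 rose and 5 fell. CDH1, the epithelial cadherin, was at 309.6, 389 and 165 CPM in the discs and 279, 326 and 286 CPM in the extraembryonic tissue (log2 difference 0.23, adjusted p 0.292). VIM, the intermediate filament of mesenchyme, was at 14.4, 40.4 and 3.51 CPM in the discs and at 0 in the extraembryonic tissue, at least 143-fold lower. The neural cadherin CDH2 fell by 2.44 and the gap junction protein GJA1 by 2.40. The desmosomal cadherins DSC2 and DSG2 rose by 1.25 and 1.11, and lay above every disc in every extraembryonic library.

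Of 28 extracellular matrix genes tested, 16 fell and 3 rose (median -0.90). MMP2, a gelatinase, was at 56.5, 129.8 and 63.2 CPM in the discs and 0, 0.686 and 0.23 CPM in the extraembryonic tissue, a fall of 7.75. COL15A1, a basement membrane collagen, and HAS2, a hyaluronan synthase, had no extraembryonic read and were at least 268-fold and 248-fold lower. TIMP1, an inhibitor of metalloproteinases, fell by 3.04, and was at 64.1, 108 and 66.7 CPM in the discs and 11.9, 3.98 and 11.7 CPM in the extraembryonic tissue of the pairs. The fibronectin gene FN1, named after its values were seen as the most abundant of the list, was not called, at 7179, 8317 and 4964 CPM in the discs and 4472, 5696 and 5407 CPM in the extraembryonic tissue.

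The rises of lowest p included transporters and lipid enzymes. FAM213A (ENSBTAG00000021416, chromosome 28, 36008546 to 36026991), a peroxiredoxin-like gene, came first, at 963, 312 and 98.3 CPM in the discs and 3272, 1053 and 1607 CPM in the extraembryonic tissue (log2 difference 2.44, SE 0.204, adjusted p 6.26e-13). SLC10A1 (ENSBTAG00000001881, chromosome 10, 81867932 to 81890829), a sodium-dependent carrier of bile acids, was at 239, 135 and 94.8 CPM in the discs and 625, 412 and 430.3 CPM in the extraembryonic tissue. MOGAT1, which makes diacylglycerol from monoacylglycerol, was at 109.5, 73.4 and 35.1 CPM and 293, 217 and 258 CPM. SLC10A1 and MOGAT1 did not overlap, and FAM213A was higher in the extraembryonic tissue of each embryo. Others of the 12 lowest p included PINLYP, ADAMTS9, SLC27A6, LRP2, SLC16A9, ACSL3, PICALM and HSD17B12, with log2 differences from 1.32 to 2.54.

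Each disc had reads of these 12 genes, except that SLC27A6 had 0 reads in the disc of embryo 4. Within an embryo the disc held a median of 43.2%, 37.7% and 22.4% of the extraembryonic CPM in embryos 1, 2 and 4. SCN3A, a sodium channel, was at 1.53, 2.33 and 0 CPM in the discs and 17, 17.3 and 17.9 CPM in the extraembryonic tissue (log2 difference 3.44), and the complement regulator CD55 at 4.6, 4.66 and 0 CPM and 18.9, 15.1 and 19.3 CPM. AREG, an EGF-family ligand, rose by 2.11, from a mean of 4.68 ± 4.06 CPM to 25.2 ± 2.51 CPM (SD, n = 3). The fitted rise of PRAME_2, a member of a gene family of near-identical copies, rested on embryo 1, with 33.9, 2.88 and 0.459 CPM in the extraembryonic tissue and 0.307, 0 and 0 CPM in the discs.

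Among the falls of lowest p were secreted proteins. PRSS35, a serine protease-like protein, was at 232, 232 and 183 CPM in the discs and 2.17, 1.1 and 1.61 CPM in the extraembryonic tissue (log2 difference -6.85, SE 0.254, adjusted p 1.90e-24). TGFBI, a matrix protein induced by TGF-beta, was at 63.8, 192 and 119 CPM in the discs and at 0 in the extraembryonic tissue, at least 916-fold lower. IGFBP2, which binds insulin-like growth factors, was at 118, 184 and 102 CPM and 3, 1.65 and 1.61 CPM. PRSS35 and IGFBP2 were read in every library at levels that stood far apart.

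The protease inhibitors SERPINA5 and A2M, the matrix protein SPON1, the peptide GUCA2A, the adhesion receptor ADGRE5 and the tubulin TUBA1A completed the 12 falls of lowest p, beside NNAT, TF and FGFR1. TUBA1A fell by 4.73, from 198, 410 and 207 CPM to 8.51, 5.9 and 12.4 CPM, and SPON1 by 5.04. Several of the largest falls had no extraembryonic read at all. PDZD4 was at least 545-fold lower, the receptor phosphatase PTPRZ1 at least 417-fold, the cationic amino acid carrier SLC7A3 at least 414-fold and the ligand BMP6 at least 387-fold. The 3 extraembryonic libraries in which these genes had no read are each deeper than every disc.

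Among insulin-like growth factor genes and imprinted genes falls outnumbered rises. Of 14 tested genes of the first list, 7 fell and 1 rose (median -0.77). IGF2 was at 16.6, 87.8 and 38.6 CPM in the discs and 2.84, 4.39 and 1.95 CPM in the extraembryonic tissue, a fall of 3.56 (adjusted p 2.77e-10), and IGFBP4 fell by 7.35. Of 9 imprinted genes tested, 6 fell and 0 rose, and 3 fell without embryo 1. With embryo 4 left out 7 fell and 1 rose. PEG10, derived from a retrotransposon and needed in the mouse placenta, was at 28.2, 90.2 and 35.1 CPM in the discs and 1.5, 1.51 and 1.95 CPM in the extraembryonic tissue, and MEST fell by 3.21. NNAT is also in the epiblast list, and IGF2 is in both lists of this paragraph.

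In the retinoid list 7 of 13 tested genes fell and 0 rose (median -1.06). The falls were 3 of 10 without embryo 1, 4 of 11 without embryo 2 and 7 of 12 without embryo 4. The retinoic acid receptor RARG was at 27.3, 39.2 and 35.1 CPM in the discs and 0.835, 1.92 and 1.84 CPM in the extraembryonic tissue, and its carrier CRABP2 fell by 3.88. RBP4, the secreted retinol carrier, fell by 1.06 and kept 58.9, 79.1 and 72.1 CPM in the extraembryonic tissue. Chromatin genes split evenly, with 5 of 22 tested higher and 5 lower (2 and 3 without embryo 1, 4 and 2 without embryo 2). Leaving out embryo 4 gave 6 higher and 5 lower. Among all tested genes 14.6% rose and 16.9% fell. JARID2, an accessory subunit of Polycomb complex 2, fell by 3.55, from 105, 239 and 126 CPM to 13.2, 10.8 and 9.41 CPM, and DNMT3A by 1.79, while the Polycomb core gene SUZ12 rose by 0.94 and the demethylase KDM1A by 0.71. DNMT1, given for comparison and chosen after its values were seen, was not called (-0.11, adjusted p 0.684).

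Lipid uptake and storage genes moved both ways. Of 25 tested, 9 rose and 7 fell (median 0.11). The counts were 6 and 2 of 23 without embryo 1, and 7 and 3 of 23 without embryo 2. They were 11 and 9 of 25 without embryo 4. Among all tested genes 14.6% rose and 16.9% fell. SLC27A6, a fatty acid transport protein, was at 111, 4.66 and 0 CPM in the discs and 489.6, 17.6 and 153 CPM in the extraembryonic tissue, and rose by 2.54 (SE 0.253, adjusted p 9.38e-11). Embryo 1 was the highest and embryo 2 the lowest in the extraembryonic tissue, so the groups overlapped, and the call was lost in 4 of 11 alternatives. ACSL3 (ENSBTAG00000017258, chromosome 2, 111797169 to 111887224), an acyl-CoA synthetase of lipid droplets, was at 568, 441 and 319 CPM in the discs and 1148, 836 and 936 CPM in the extraembryonic tissue, a rise of 1.32 (adjusted p 9.40e-10). ACSL4 rose by 1.48 and the lipoprotein receptor SCARB1 by 1.17, both without overlap.

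DGAT2, which makes triglyceride, went the other way, at 18.4, 17.5 and 21.1 CPM in the discs and 0.334, 0.137 and 0.115 CPM in the extraembryonic tissue, a fall of 6.27 (adjusted p 1.29e-09). For fatty acid synthesis and oxidation, 6 of 31 tested genes rose and 7 fell (median 0.11), and 3 rose and 2 fell when either embryo 1 or embryo 2 was left out. With embryo 4 left out 6 rose and 9 fell. The main counts lie near the 14.6% that rose and 16.9% that fell among all tested genes. The desaturase FADS2 rose by 0.76 and the thioesterase ACOT8 by 0.88. Fatty acid synthase, FASN, fell by 0.70, from a mean of 1464 ± 400.3 CPM to 776 ± 43.2 CPM (SD, n = 3). SCD5, a stearoyl-CoA desaturase, had 18.4, 38.1 and 14 CPM in the discs and no extraembryonic read, at least 172-fold lower.

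Among sterol genes falls outnumbered rises. Of 31 tested genes of cholesterol and steroid synthesis, 17 fell and 3 rose (median -0.57). DHCR7, the last enzyme of cholesterol synthesis, was at 259, 323 and 225 CPM in the discs and 108, 106 and 94.8 CPM in the extraembryonic tissue, a fall of 1.20. SQLE and FDFT1, enzymes of squalene metabolism, fell by 1.19 and 0.89. STARD4, a carrier of cholesterol within cells, rose by 1.25, from 37.7, 48.2 and 24.6 CPM to 85.8, 78.5 and 87 CPM. With the spread shared over the media 7 of 31 fell and 0 rose. The falls were 9 of 28 without embryo 1, 7 of 30 without embryo 2 and 19 of 30 without embryo 4.

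Of 26 tested genes of glucose and lactate metabolism, 10 fell and 2 rose (median -0.26), with GAPDH listed at 0 in every library. Leaving out embryo 1 or embryo 2 gave 4 falls and 0 rises, and leaving out embryo 4 gave 7 falls and 1 rise. The hexokinase HK1 was at 88.1, 136 and 102 CPM in the discs and 20.7, 29.1 and 21 CPM in the extraembryonic tissue, a fall of 2.00. The glucose carriers SLC2A1 and SLC5A1 fell by 0.71 and 4.59. Of 19 amino acid transporters tested, 6 fell and 2 rose (median -0.28), with SLC7A8 (-1.89) and its partner SLC3A2 (-1.31) among the falls. For comparison, 16.9% of all tested genes fell and 14.6% rose. Of 13 ion and water transport genes 7 fell and 4 rose (5 and 2 without embryo 1 or embryo 2), with the aquaporins AQP3 (-2.70) and AQP8 (-4.24) lower and the sodium pump subunit ATP1B3 higher (0.75).

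Protein folding genes of the endoplasmic reticulum were the list with the largest share of rises among those of over 20 tested genes. Of 25 tested in the unfolded protein response list, 14 rose and 0 fell (median 0.50), against 14.6% of all tested genes. DNAJB9, a co-chaperone, was at 81, 61.4 and 49.1 CPM in the discs and 153, 121 and 155 CPM in the extraembryonic tissue, a rise of 1.26 (SE 0.184, adjusted p 6.79e-07). HSP90B1, an abundant chaperone, was at 2409.7, 2133 and 2226 CPM and 3881, 3002 and 3375 CPM, a rise of 0.78. CANX, calnexin, rose by 0.87, DNAJC3 by 0.92 and the sensor ATF6 by 0.89, and all 5 genes were above every disc in every extraembryonic library of the pairs. The rises are small, and with the spread shared over the media 3 of 25 rose. The rises were 8 of 24 without embryo 1 and 9 of 24 without embryo 2. With embryo 4 left out 15 of 25 rose and 1 fell.

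The lists of respiration and proliferation had medians near 0. Among 36 oxidative phosphorylation genes of the nucleus 5 rose, led by UQCRB at 0.76, and 0 fell (median 0.07), and of 11 mitochondrially encoded genes 5 rose and 0 fell (median 0.11), where 14.6% of all tested genes rose. The mitochondrially encoded rises were 1 without embryo 1 (median 0.02) and 1 without embryo 2 (median -0.04), and 0 after thinning or with the shared spread. The nuclear ones were 3 when either of these embryos was left out. Without embryo 4 the mitochondrially encoded rises were 5 (median 0.33) and the nuclear ones 6. Of 29 cell cycle genes 4 rose, 2 fell and 23 were not called (median 0.07), and 2 rose without embryo 1 or embryo 2. CCND2 rose by 1.22, from 56.5, 56.7 and 7.02 CPM to 84.5, 114 and 92.1 CPM, and CCND1 fell by 2.60, from 7.06, 8.16 and 17.6 CPM to 0.835, 1.78 and 1.61 CPM. These 2 D-type cyclins, which drive entry into S phase, thus moved in opposite directions without overlap.

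**Figure D4:**
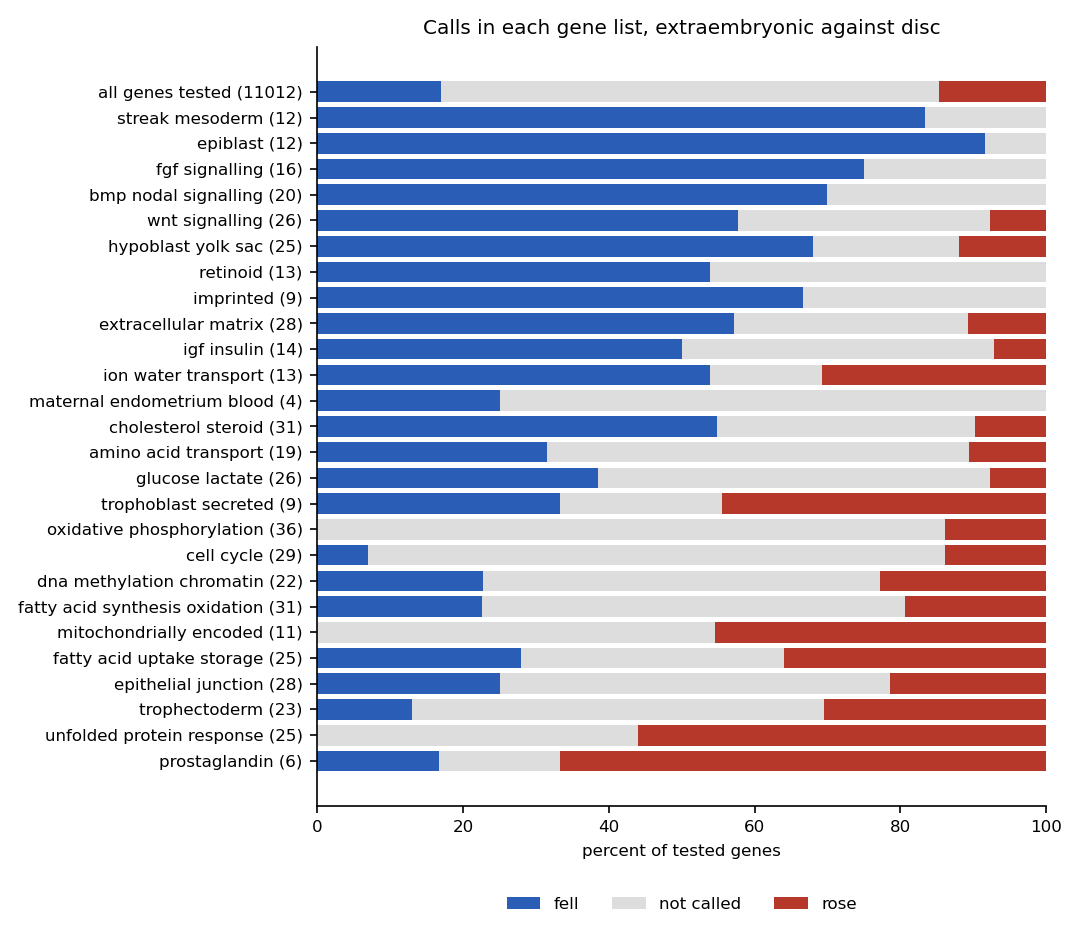
Share of the tested genes in each list that fell (blue), were not called (grey) or rose (red) in the extraembryonic tissue of CONTROL embryos, in percent, with the number tested in brackets and all 11012 tested genes at the top. Epiblast, streak, FGF and BMP/Nodal lists are mostly blue, and the unfolded protein response list has 14 of 25 genes in red and none in blue.

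Per kilobase of exon, the highest level in the extraembryonic tissue belonged to a gene without a symbol, ENSBTAG00000039693, at 23428 CPM per kb against 7506 CPM per kb in the disc. Its library values were 30469, 15769 and 4964 CPM in the discs and 56466, 52689 and 50672 CPM in the extraembryonic tissue, a rise of 2.16 (adjusted p 8.52e-11). In each extraembryonic library this single gene took more reads than the 24 trophectoderm markers together. In the disc the highest level per kilobase was that of the mitochondrial oxidase gene COX1, at 9563 CPM per kb, and COX1 stood at 11448 CPM per kb in the extraembryonic tissue. KRT18 and the actin ACTG1 were among the 10 highest in both tissues, with no call for either.

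Between the 3 embryos, the within-embryo difference of genes with at least 20 CPM in both tissues had a median SD of 0.29 on the log2(CPM + 1) scale over 5049 genes. The 8 genes with a symbol and the largest SD included MADD, NIN, HIPK1, SLC27A6, TRIO, KRTCAP3 and FAM45A. Each of the 8 had 0 reads in the disc of embryo 4. MADD was at 43.3, 47.4 and 0 CPM in the discs and 26.2, 22.9 and 24.6 CPM in the extraembryonic tissue, and NIN at 27.3, 45.9 and 0 CPM and 29.4, 31.3 and 38.2 CPM, both not called. At the depth of that disc, 5 of 3775 genes with at least 40 CPM in every extraembryonic library had no read there. In the other discs thinned to the same depth, 0 of these genes were without a read. MADD and NIN, under 40 CPM in the extraembryonic libraries, are not among the 3775, so this count does not cover them.

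The reads in introns, which can come from unspliced transcripts and were not used for the calls, pointed the same way in most genes. Of 1469 genes that rose and had at least 20 intron reads, 1162 were higher in the extraembryonic tissue (79.1%). Among all tested genes with that many intron reads, 48.6% were higher. Of 902 that fell, 809 were lower (89.7%), against 51.4% of all tested genes. Intron and exon reads come from the same libraries and are not independent.

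The unpaired extraembryonic library of embryo 5 lay below all 3 discs for 1439 of the 1865 genes that fell (77.2%), against 30.4% of all tested genes. It lay above all 3 discs for 1037 of the 1610 that rose (64.4%), against 21.7% of all. NNAT was at 0.194 CPM, TF at 0 CPM and SOX2 at 0 CPM in embryo 5, as low as in the pairs. Other falls were less deep there: PRSS35, TUBA1A and GUCA2A, among the 12 falls of lowest p, were at 20.6, 49.9 and 3.69 CPM in embryo 5. Their highest values in the paired extraembryonic libraries were 2.17, 12.4 and 0.501 CPM, and embryo 5 still lay below every disc for these genes. Some genes that rose in the pairs were within or below the range of the discs in embryo 5: IFNT2 was at 659 CPM, SCN3A at 0.389 CPM, CD55 at 2.72 CPM and ADAMTS9 at 29.3 CPM, against 165, 207 and 161 CPM for ADAMTS9 in the pairs. KRT8 was at 12323 CPM in embryo 5, above all 6 paired libraries. Embryo 5 differed from the pairs in both shape and sex, which cannot be told apart with 1 library.

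The same contrast in embryos of the other media, which share no library with the CONTROL pairs, gave mostly the same directions. It used 11 BASAL and 8 HIGH PA embryos with both parts. Of the genes that fell in CONTROL and could be fitted there, 94.6% were lower in the extraembryonic tissue of BASAL and 94.0% of HIGH PA embryos, and 1514 and 1442 of 1864 were called there in the same direction. Of the genes that rose, 82.5% and 84.8% were higher, and 616 and 591 of 1610 were called. Across all 11002 genes 70.8% and 71.0% had the same sign, and 3991 and 3635 were called there in the direction they had in CONTROL. The share of the rises that was called there was thus close to that of all genes.

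The median log2 difference of the CONTROL falls was -2.01 in CONTROL, -1.56 in BASAL and -1.67 in HIGH PA embryos in the joint model, and that of the CONTROL rises was 0.86, 0.31 and 0.36. Both medians were closer to 0 outside CONTROL. These genes were chosen by their adjusted p in CONTROL, so the medians do not compare the media on equal terms. Among all 11002 genes the difference was larger in CONTROL for 6977 against BASAL and for 6307 against HIGH PA. The cause of the smaller sizes was not tested. NNAT was at -10.37 in BASAL and -9.72 in HIGH PA embryos, SOX2 at -9.27 and -8.25, and IFNT2 at 1.23 and 2.02. LRP2 was at 0.35 and 0.92, and PTGS2 at -0.34 and 0.28, so the sign of PTGS2 was the opposite one in BASAL embryos.

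**Figure D5:**
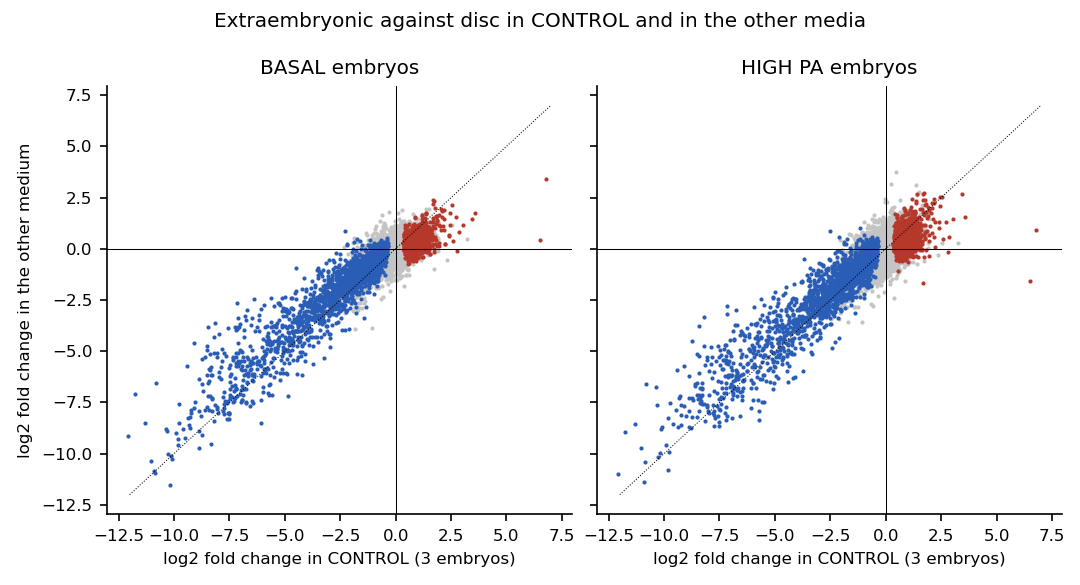
Log2 difference of extraembryonic tissue against disc for each gene in CONTROL embryos (horizontal axes) and in BASAL or HIGH PA embryos (vertical axes), with genes that fell in CONTROL in blue, genes that rose in red, other genes in grey, and the dotted line of equal size. Blue genes lie along the dotted line, and red genes lie mostly between the horizontal axis and the line, with medians of 0.31 and 0.36.

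The difference itself was tested as an interaction of tissue and medium over the 22 embryos. By edgeR's quasi-likelihood test 0 of 12278 genes differed between CONTROL and BASAL and 0 between CONTROL and HIGH PA, with 928 and 1104 genes at an unadjusted p under 0.05 and lowest adjusted p of 0.629 and 0.522. DESeq2 called 0 and 1. Among the genes of lowest p was CCDC85B, a small coiled-coil protein, at 27, 38.5 and 112 CPM in the CONTROL discs and 11.4, 13.4 and 6.89 CPM in their extraembryonic tissue. Its log2 difference was -1.90 in CONTROL, -0.02 in BASAL and 0.33 in HIGH PA embryos. For the receptor KIT the values were 0.64, -0.73 and -1.10, and for the chaperone CANX 0.95, 0.19 and 0.22. None of these interactions passed the correction.

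Restricted to the embryos of cow 813, which received all 3 media, the test called 4 genes (1 higher, 3 lower) against 3 BASAL embryos. Against HIGH PA it called 851, 154 of them higher and 697 lower, but this rested on 1 HIGH PA embryo. With CONTROL, BASAL and HIGH PA restricted to tubular male embryos, 3 BASAL and 4 HIGH PA pairs remained and 0 genes were called, with lowest adjusted p of 1 and 0.0535. The medium of the oocyte and the flush cannot be told apart in these contrasts.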

How the data were processed

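The members and gene lists were chosen with earlier results of these data known. Per the labels, RNA of single discs (Allprep micro kit) and extraembryonic tissues (mini kit) was made into stranded TruSeq mRNA libraries and sequenced as read pairs. The table deposited by the authors holds, per gene and library, whole-number counts of exon reads without scaling, counts of uniquely placed exon reads and counts of intron reads. The submitters' processing notes name UMD3.1 and DESeq2 1.10.1. No aligner is named in the sources read here. Of 24596 features 18541 carried a symbol, and the RefSeq table matched 0 of the other 6055.

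Exon counts of the 6 libraries were tested with edgeR 4.0.16 (R 4.3.3): TMM scaling (factors 1.03 to 1.12 in discs, 0.92 to 0.95 in extraembryonic libraries), the default filter on low counts, embryo and tissue as terms, quasi-likelihood F test, Benjamini-Hochberg adjustment at 0.05. Log2 differences are extraembryonic minus disc, after scaling, and SEs are the absolute difference over the square root of F. CPM values are unscaled. Same-numbered samples are the same embryo in the labels, and their deviations from the group means correlated at 0.195, 0.132 and 0.106, so embryo was kept as a block. Interactions used 22 embryos whose libraries both held at least 10000 reads. For genes at 0 in the extraembryonic tissue, the mean disc CPM was set against 3 reads over the 3 extraembryonic libraries. These bounds leave out the spread between discs. Intervals on pooled reads cover counting error only. The scripts were tested on simulated counts.

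Named genes were the 12 of lowest p per direction with a symbol, the 8 of largest difference with at least 5 CPM in the higher tissue, up to 5 called per list, 16 chosen markers, 6 per direction in each interaction, the 8 most variable between embryos and the 10 highest per tissue. Alternatives were another tool and scaling, no filter, unique reads, no block, embryo 5 added, thinning, a shared spread and each embryo left out. The list counts under each alternative were added after seeing the data. Some genes that these rules select are not reported here.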

Additional observations from a re-analysis of the deposited data

Results flagged for a closer look

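Each value here was picked out because 1 of the 4 extraembryonic CONTROL libraries stood far from the other 3, by Dixon's ratio of its gap to the group's range. Of 115 values examined, 11 stood out, 7 of them from embryo 5, the unpaired ovoid female, and 4 from embryo 2. Chance alone picks out about 1 in 20 such groups.

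In embryo 5 the keratins KRT8 (12323 CPM, others 6023 to 6235) and KRT18 (13073 CPM, others 6634 to 6689) were high. So were the glucose carrier SLC2A1 (420.4 CPM, others 257 to 283), the replication helicase subunit MCM5 (280.3 CPM, others 210 to 219), the tRNA methyltransferase subunit TRMT61A (89.2 CPM, others 40.1 to 45.2), the protease inhibitor TIMP1 (55.2 CPM, others 3.98 to 11.9) and the nuclear protein CSRNP1 (33.0 CPM, others 17.0 to 19.1). For CSRNP1 and TRMT61A, which are among the genes with the lowest p in the comparison with other media, embryo 5 stood near the CONTROL discs and not near the paired extraembryonic libraries.

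In the extraembryonic tissue of embryo 2, APOE (178 CPM, others 134 to 137), ID3 (38.1 CPM, others 31.1 to 31.7) and RND3 (26.3 CPM, others 17.3 to 18.5) were high, and the prostaglandin transporter SLCO2A1 (16.7 CPM, others 28.6 to 29.7) was low. For SLCO2A1 embryo 2 still lay above all 3 discs.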

How the results depend on the processing

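The 3475 calls (1610 rises, 1865 falls) became 2142 (833 and 1309) with DESeq2, 793 (347 and 446) after thinning and 1856 (474 and 1382) with the spread shared over the media. Leaving out 1 embryo gave 1377 to 3862 calls (621 to 1813 rises, 756 to 2049 falls). Without the embryo block 2907 genes were called (1238 and 1669), and without the block and with embryo 5 added 2454 (968 and 1486). The cause of these shifts was not tested, except that thinning removes reads and leaving out an embryo removes libraries. Interactions were 0 under all alternatives but the embryos of cow 813 (4 for BASAL, 851 for HIGH PA with 1 pair) and DESeq2 (1 for HIGH PA), and leaving out a CONTROL embryo gave 0 to 0. Without the replicate block 0 interactions were called. Of 1999 values of 188 named genes under alternatives, 1807 kept their side of the threshold, 188 lost their call, 4 gained one and 0 reversed. Depth limits what can be said of genes of low level in the disc of embryo 4, which held 284848 reads.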

Other observations

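The calls were spread unevenly over the chromosomes, a description with no test. Of the tested genes on chromosomes 1, 6 and 20, 23.6%, 23.0% and 24.7% rose, and on chromosomes 25, 18 and 29 4.51%, 6.91% and 7.41%, against 14.6% of all tested genes. Falls made up 24.3% of the genes on chromosome 18, 21.6% on chromosome 25 and 22.3% on X, and 10.7% on chromosome 1. Gene content, length and base composition differ between these chromosomes and were not examined here.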
